A study of Mus musculus with 14 samples.

Results

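The 9 genes described here are the ones most often used to recognise astrocytes, the star-shaped glial cells that take up glutamate, buffer ions and water and couple blood vessels to neurons. They are the cytoskeletal gene Gfap, the water channel gene Aqp4, the glutamate transporter genes Slc1a2 and Slc1a3, the gap junction gene Gja1, the metabolic genes Aldh1l1 and Aldoc, the transcription factor gene Sox9 and the calcium-binding protein gene S100b. What was measured at them is H3K4me3, a histone modification that marks the promoters of genes that are or can be transcribed, by chromatin immunoprecipitation and sequencing of whole prefrontal cortex. Every summit of the deposited peak table that lay inside one of the genes or within 2 kb of it was taken, which gave 115 of 153207 summits. All 115 passed the filter on low values.

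The mice were adult C57BL/6J males of 10 to 12 weeks. In the CSDS30 group (5 libraries) they met an aggressive CD1 mouse daily for 30 days, in the CSDS10 group (5 libraries) for 10 days, and between encounters they lived beside it behind a perforated barrier. The control mice (3 libraries) were kept in divided cages without an aggressor. All were killed 24 h after the last session and had been through behavioural tests. Whether every library is a different animal is not stated, and p-values therefore reflect library-to-library spread that may be partly technical. Reads on summits ranged from 4512817 to 10887911 per library. The slope of each library on the mean of all libraries was 0.856 in CSDS30 replicate 2 and 1.12 in CSDS10 replicate 2, against 0.962 to 1.04 in the other 11 libraries, so those 2 stand apart.

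H3K4me3 at a promoter spreads from the start site over the first nucleosomes of the gene, and genes that define a cell type are known for wide domains of it in that cell type. Astrocytes are a minority of cortical cells, and a whole-tissue library mixes their chromatin with that of neurons and other glia. Fewer cells of a type and less signal per cell cannot be told apart in such libraries. Slc1a2 and Slc1a3 clear glutamate from synapses. Gfap is an intermediate filament that rises in reactive astrocytes, and Sox9 is needed for the astrocyte fate.

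The promoter sequences are shown first because the level of H3K4me3 is known to go with the density of CG dinucleotides. The 250 bases before the annotated start were taken from RefSeq (GRCm38.p6), for 7 of the 9 genes and 8 windows, since Aldoc has 2 annotated starts. The 4 windows printed belong to the gene with the highest level of the mark (Slc1a3, chr15:8710808-8711057, minus strand), to a gene with no summit within 1 kb of its start (Gfap, chr11:102897201-102897450, minus strand) and to the 2 genes with most CG (Gja1, chr10:56377050-56377299, plus strand, and Aldh1l1, chr6:90550543-90550792, plus strand). Capitals mark each CG, and the last base printed is the one before the start.
Slc1a3: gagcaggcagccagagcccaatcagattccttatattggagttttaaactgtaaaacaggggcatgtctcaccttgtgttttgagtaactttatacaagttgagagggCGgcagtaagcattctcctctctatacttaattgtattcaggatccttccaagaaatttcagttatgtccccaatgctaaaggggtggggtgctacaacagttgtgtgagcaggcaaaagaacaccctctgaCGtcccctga
Gfap: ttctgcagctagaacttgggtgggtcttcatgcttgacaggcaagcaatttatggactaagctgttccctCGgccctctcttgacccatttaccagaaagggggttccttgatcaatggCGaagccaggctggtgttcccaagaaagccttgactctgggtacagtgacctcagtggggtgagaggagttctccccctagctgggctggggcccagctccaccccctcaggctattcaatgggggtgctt
Gja1: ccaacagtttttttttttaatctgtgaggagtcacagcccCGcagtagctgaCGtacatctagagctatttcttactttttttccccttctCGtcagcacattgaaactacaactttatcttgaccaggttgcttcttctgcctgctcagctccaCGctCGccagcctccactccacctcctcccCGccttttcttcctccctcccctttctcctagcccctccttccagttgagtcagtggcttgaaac
Aldh1l1: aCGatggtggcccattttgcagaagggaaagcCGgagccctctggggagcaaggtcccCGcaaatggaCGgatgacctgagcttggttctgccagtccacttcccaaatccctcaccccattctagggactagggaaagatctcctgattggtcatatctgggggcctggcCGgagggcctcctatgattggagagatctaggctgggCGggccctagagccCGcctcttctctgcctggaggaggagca

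The windows ranged from few CG to about the typical number. The number of CG was 7 in Aldh1l1, 6 in Gja1, 5 and 3 in the windows of Aldoc, 2 each in Gfap, Slc1a3 and S100b, and 1 in Slc1a2. The starts of Slc1a2 and Gfap had no summit within 1 kb, so their windows do not describe the sequence at the mark. Sox9 and Aqp4 had no window. The median of all 32851 windows of the same length was 6, with quartiles of 2 and 16, so 1 of the 8 windows lay above the median, 1 at it and 6 below it. Slc1a3 combined 2 CG with the highest H3K4me3 of the 9 genes. The TATA box (TATAAA, both strands) occurred in 1 of 8 windows, that of Slc1a3, against 12.4% of all windows. The GC box GGGCGG occurred in 3 windows, those of Slc1a3, Aldh1l1 and the first start of Aldoc, against 32.7% of all. A STAT-like site (TTCNNNGAA) occurred in 2 windows, that of Slc1a3 and the second of Aldoc, against 7.02% of all, and the nuclear factor I half-site TTGGCA in 2 windows, the first of Aldoc and that of S100b, against 12.3% of all. Both strands were searched for each. In Slc1a3 the matches lay 161, 145 and 96 bases before the start, and no match overlapped one of another motif. A match is a description of letters only.

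The mark was laid out differently from gene to gene. Slc1a2 (chr2:102658239-102790784) had the widest run, 28 summits over 6.01 kb at the lower boundary of the gene, wider than 99.4% of the 15244 protein-coding genes with a summit, whose median run was 1.44 kb. The start in the promoter table, at 102706438, lies far inside the gene from there and had no summit within 1 kb. A predicted gene, LOC115489466, covers or lies within 2 kb of each summit of the run. Sox9 (chr11:112782210-112787757) had 26 summits in a run of 4.70 kb, wider than 97.8% of coding genes, 7 of them before the lower boundary of the gene. Gja1 (chr10:56377300-56390419) had 18 summits over 3.77 kb and Slc1a3 (chr15:8634124-8710807) a run of 13 of its 17 summits over 2.96 kb, wider than 94.9% and 89.0% of coding genes. Another gene, Gm31340, covers or lies within 2 kb of the Slc1a3 summits nearest its start, the strongest one included. The other 5 genes had short runs.

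Aldh1l1 (chr6:90550768-90599171) had 5 summits over 1.28 kb, and S100b (chr10:76253836-76261319) had 5, of which 4 made a run of 0.584 kb. Gfap (chr11:102887336-102897200) had 4 summits, all 3590 to 4059 bp inside the gene from its annotated start and none within 1 kb of that start. Aqp4 (chr18:15389394-15410982) had a single summit, 11797 bp from the lower boundary, and another gene, A830021F12Rik, covers it or lies within 2 kb of it. Aldoc (chr11:78323073-78327781) had 11 summits, but 6 of them lay beyond its end at the start of Pigs. The strongest of those 6, at chr11:78328575, averaged 123 normalised reads over all 13 libraries, so the strongest summit near Aldoc belongs by position to Pigs. Neighbouring member summits within the same called region were a median of 185 bp apart, against 179 bp over all summits, about the spacing of nucleosomes. A run can hold several called regions, and the gaps between them are not counted here.

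**Figure D1:**
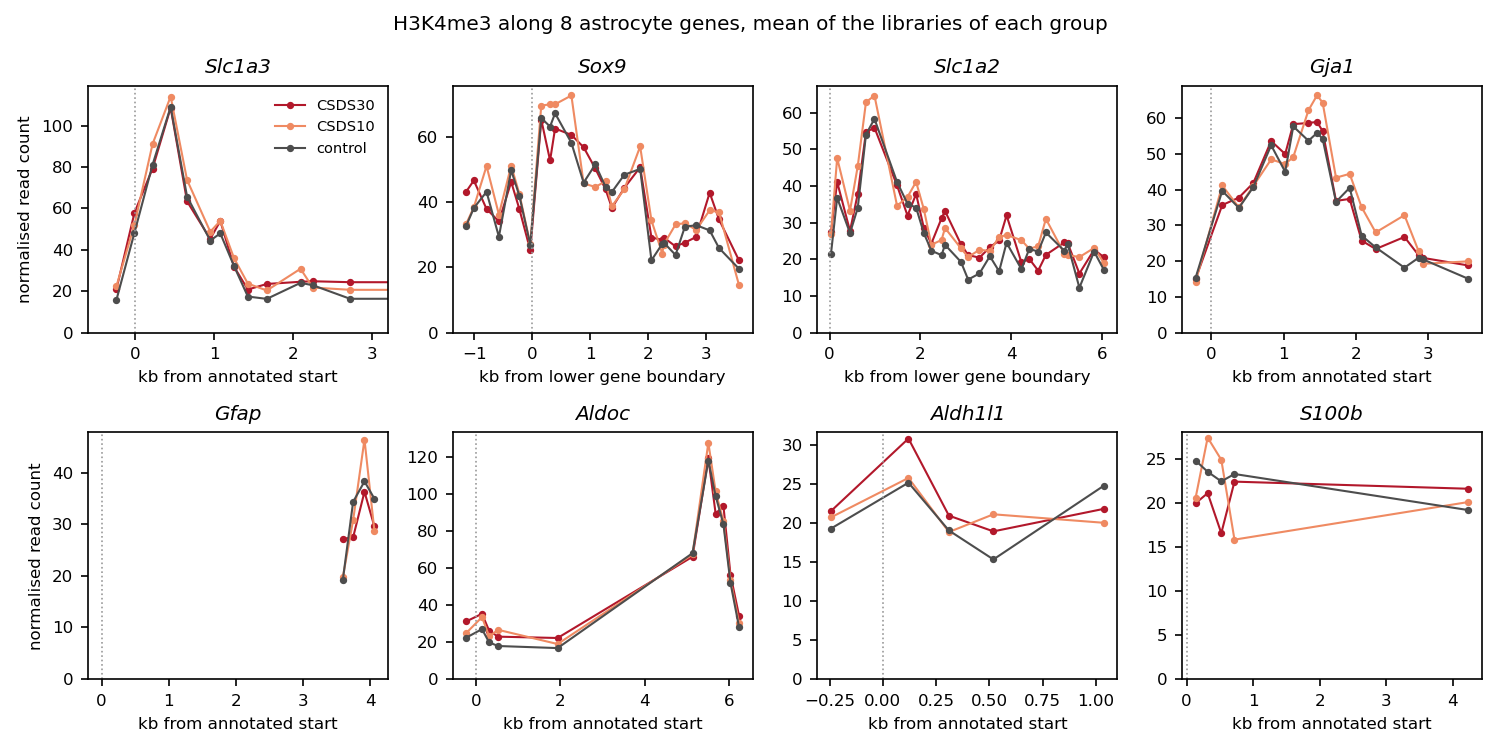
Mean normalised read count (vertical axes) of each summit in the CSDS30, CSDS10 and control libraries against distance in kb from the annotated start, or from the lower gene boundary where the promoter table gives no start at the mark (horizontal axes), for 8 of the 9 genes. Aqp4 has 1 summit and is not drawn, the deepest summits of Slc1a3 are outside the window, and the tall summits at the right of the Aldoc panel lie at the start of Pigs. The 3 lines cross or lie close to each other at every gene.

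Levels are given as the normalised read count of 1 summit per gene, the strongest within 1 kb of an annotated start, or the strongest within 2 kb of the gene where there was no such summit (Gfap, Aqp4, Slc1a2, Sox9). In control libraries Slc1a3 was highest at 109 ± 28.1 (SD, n = 3), followed by Sox9 at 65.8 ± 8.75, Slc1a2 at 58.3 ± 8.79, Gja1 at 52.4 ± 14.1 and Gfap at 38.3 ± 12.3. Aldoc had 27.1 ± 4.48, Aldh1l1 25.2 ± 2.24, S100b 23.6 ± 11.4 and Aqp4 16.3 ± 1.80. Only the first step, Slc1a3 to Sox9, separated the ranges of neighbouring genes, and all later neighbours overlapped. All but that of Slc1a3 were below the median strongest summit of coding genes, 97.6 over all libraries. That median is not the same measure, since it takes the strongest summit within 2 kb of a gene, also one at a neighbour's start. By the strongest summit Gja1 had 61.1 over all libraries and Aldoc 123, at the start of Pigs. Of the coding genes, 67.4% had a strongest summit lower than the leading summit of Slc1a3, 24.6% lower than that of Sox9, and 1.74% lower than that of Aqp4. Whether the 9 genes are active in these cells was not measured. Every gene of the list had at least 1 summit, but so had 15244 of 21883 protein-coding genes and all 14 genes of a neuronal list. Having a summit therefore does not test the label.

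The 2 glutamate transporter genes had their leading summits at chr15:8710360, 447 bp inside Slc1a3, and at chr2:102659227, 988 bp from the lower boundary of Slc1a2. Slc1a3 had 98.7, 106, 104, 122 and 112 in the CSDS30 libraries, 126, 97.4, 131, 122 and 94.3 in the CSDS10 libraries, and 141, 96.4 and 89.4 in the control libraries. The controls held both the lowest and the highest library, and the 3 groups overlapped. Slc1a2 had 56.4, 48.4, 56.8, 46.2 and 71.7 in CSDS30, 56.6, 90.3, 75.3, 45.7 and 55.3 in CSDS10, and 48.2, 62.5 and 64.2 in control. CSDS10 replicate 2 was highest here, and the groups overlapped again.

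Gja1 encodes the main connexin of astrocyte gap junctions, Aqp4 the water channel of their end feet around vessels. The leading summit of Gja1, 826 bp inside the gene at chr10:56378126, had 44.6, 60.9, 59.9, 50.5 and 52.2 in CSDS30, 62.3, 36.7, 43.3, 42.4 and 57.7 in CSDS10, and 66.4, 38.2 and 52.7 in control. The single summit of Aqp4 had 7.83, 26.6, 14.7, 20.5 and 21.7 in CSDS30, 26.2, 7.06, 21.6, 18.6 and 35.0 in CSDS10, and 14.7, 18.2 and 16.05 in control. Aqp4 was lowest in CSDS10 replicate 2, where it rested on 5 reads, and in CSDS30 replicate 1 with 10 reads. The controls lay inside the range of both stressed groups at Aqp4, and at Gja1 a control library was the highest of all while the groups overlapped.

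Gfap and Sox9 mark the cytoskeleton and the fate of the lineage. The leading summit of Gfap, 3912 bp inside the gene at chr11:102893288, had 19.6, 37.5, 48.4, 37.6 and 38.4 in CSDS30, 50.04, 31.1, 45.2, 64.4 and 41.5 in CSDS10, and 49.6, 25.2 and 40.1 in control. Its lowest library was CSDS30 replicate 1 and its highest CSDS10 replicate 4. Sox9, at chr11:112782363, had 62.6, 68.7, 65.2, 58.2 and 71.7 in CSDS30, 81.2, 56.5, 69.7, 83.0 and 57.7 in CSDS10, and 75.5, 63.4 and 58.5 in control. The groups overlapped at both genes.

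Aldh1l1, an enzyme of folate metabolism, Aldoc, a glycolytic aldolase, and S100b, a calcium-binding protein, had the lowest start summits. Aldh1l1 had 24.3, 35.9, 22.1, 47.9 and 23.9 in CSDS30, 30.4, 15.5, 37.7, 15.2 and 30.1 in CSDS10, and 26.6, 22.6 and 26.4 in control. Aldoc, 146 bp inside the gene at chr11:78323219, had 46.2, 39.0, 21.0, 34.2 and 36.2 in CSDS30, 28.7, 45.2, 34.8, 32.2 and 26.8 in CSDS10, and 22.4, 31.3 and 27.5 in control. Here 4 of 5 CSDS30 libraries were above all controls, and replicate 3 was below them. S100b had 24.3, 14.1, 16.8, 26.5 and 23.9 in CSDS30, 30.4, 26.8, 32.0, 20.3 and 27.6 in CSDS10, and 17.5, 16.5 and 36.7 in control, where 1 control library was above all others.

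**Figure D2:**
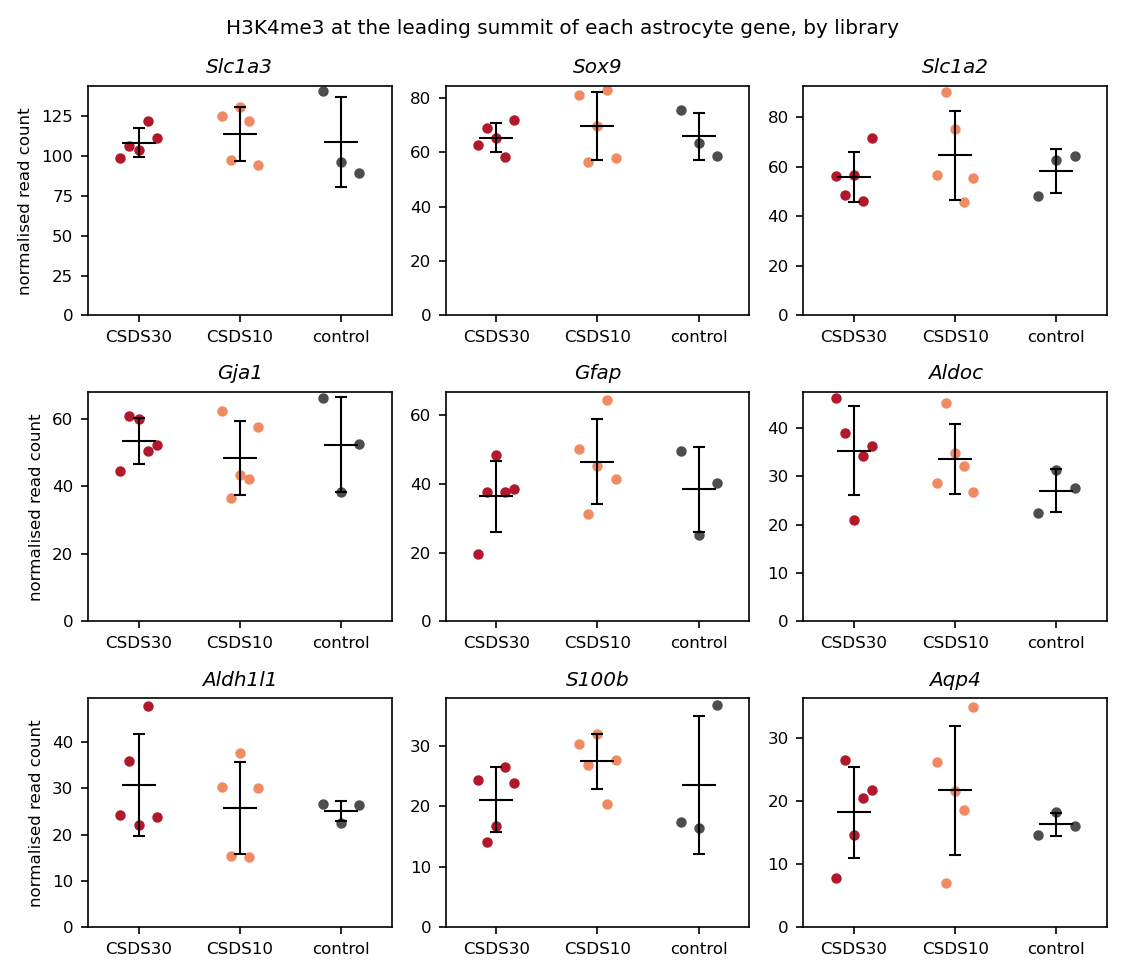
Normalised read count (vertical axes, from 0) at the leading summit of each of the 9 genes in each of the 5 CSDS30, 5 CSDS10 and 3 control libraries. Points are libraries and bars are the mean ± SD of the group, and at every gene the 3 groups overlap.

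No difference in H3K4me3 after social defeat of either length passed the threshold at the 9 genes, nor at any other tested summit. In CSDS10 against control, 0 of 115 member summits passed an adjusted p of 0.05 (limma on log2(value + 1), Benjamini-Hochberg over 152270 summits), and 0% of all tested summits did. At an unadjusted p under 0.05, 1 member was higher in CSDS10, against 1.99% of all summits, and 0 were lower, against 1.22%. Over all summits 4891 had an unadjusted p under 0.05. Both edgeR and DESeq2 on the recovered reads called 0 of all summits as well.

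The fitted differences at the leading summits were small beside their intervals. For CSDS10 against control the log2 fold changes lay between -0.10 at Gja1 and 0.29 at Aldoc. The 95% interval at Slc1a3, the most precisely measured, ran from -0.24 to 0.40, and at Aqp4 from -0.60 to 1.08. At Gfap the log2 fold change was 0.28 ± 0.28 (SE), with means of 46.4 ± 12.2 in CSDS10 (SD, n = 5) and 38.3 ± 12.3 in control (SD, n = 3). The summed count over all summits of a gene had a log2 fold change above 0 at 8 of 9 genes in CSDS10, against 52.3% of all 20864 genes tested, but Gfap and Aldh1l1 turned below 0 when libraries were scaled by total reads. The total of Aldoc includes the 6 summits at the start of Pigs, which make up most of it. In control libraries it was 583, 542 and 535 with them and 95.7, 109 and 108 without them. Without them the totals above 0 were still 8 of 9 here, 7 of 9 in CSDS30 against control and 2 of 9 in CSDS30 against CSDS10. The largest log2 fold change of the 9 totals as fitted was that of Aqp4 at 0.24 ± 0.43 (SE) and that of Slc1a2 was 0.21 ± 0.16. 0 of the 9 totals passed (limma, 0% of all genes), and 0 had an unadjusted p under 0.05, against 2.08% of all genes higher and 1.23% lower.

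Of the 115 summits, 85 had a log2 fold change above 0 in CSDS10 against control, where 50.3% of all summits did, with a median of 0.12 against 0.0017 over all summits. Summits of a gene share their libraries and are not replicates, and the 85 comprised 24 of 28 summits of Slc1a2, 16 of 26 of Sox9, 14 of 17 of Slc1a3, 13 of 18 of Gja1, 10 of 11 of Aldoc and 8 of the 15 of the other genes. Without the 6 summits at the start of Pigs the count was 80 of 109. The smallest p among the members was at a summit of Gja1 2670 bp inside the gene (chr10:56379970), with 32.9 ± 6.63 in CSDS10 (SD, n = 5) and 18.2 ± 6.55 in control (SD, n = 3), a log2 fold change of 0.85 ± 0.35 (SE) and an adjusted p of 1.00 by limma. Its libraries read 32.0, 22.6, 35.8, 40.7 and 33.3 in CSDS10 and 25.2, 12.2 and 17.2 in control, so the groups overlapped. The other named summits of this comparison were a Sox9 summit at chr11:112784262 with 0.58 (SE 0.31), an S100b summit at chr10:76254557 with -0.56 (SE 0.36) and a Slc1a3 summit at chr15:8655422 with -0.58 (SE 0.39). Groups did not overlap at 2 member summits in the higher direction and 1 in the lower, where 1.59% and 1.40% of all summits did so.

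For CSDS30 against control, 0 of 115 member summits passed (limma, 0% of all summits), and 0 had an unadjusted p under 0.05 in the higher or the lower direction, against 1.44% and 1.97% of all summits. Over all summits 5194 had an unadjusted p under 0.05, and edgeR and DESeq2 called 0 members. At the leading summits the log2 fold changes ran from -0.094 at S100b to 0.34 at Aldoc. Aldoc had 35.4 ± 9.20 in CSDS30 (SD, n = 5) and 27.1 ± 4.48 in control (SD, n = 3), with a 95% interval of -0.22 to 0.91. At Slc1a3 the value was 0.020 with an interval of -0.30 to 0.34, and it was below 0 by edgeR and by DESeq2. The gene total was above 0 at 7 of 9 genes, against 44.2% of all genes, with Gfap at -0.10 ± 0.27 and S100b at -0.15 ± 0.18 (SE) below it. 0 totals passed, and 0 had an unadjusted p under 0.05, against 0.556% of all genes higher and 1.67% lower.

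Of the 115 summits 72 had a log2 fold change above 0 in CSDS30 against control, where 50.8% of all did, with a median of 0.062 against 0.0043. The smallest p was at a Slc1a2 summit (chr2:102660706), with 31.2 ± 3.04 in CSDS30 (SD, n = 5) and 21.1 ± 3.24 in control (SD, n = 3), a log2 fold change of 0.55 ± 0.28 (SE). All 5 CSDS30 libraries, at 28.1 to 35.9, were above the 3 controls, at 17.4 to 23.1, yet the adjusted p was 1 by limma. It was 1 of 2 member summits whose groups did not overlap in this direction, against 1.23% of all summits, and 0 did in the other, against 1.74%. A Sox9 summit at chr11:112785265 had 0.43 (SE 0.27), an S100b summit at chr10:76254359 had -0.45 (SE 0.33) and another Slc1a2 summit at chr2:102663006 had -0.35 (SE 0.31).

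The longer and the shorter defeat could be compared over 5 libraries each. In CSDS30 against CSDS10, 0 of 115 summits passed (limma, 0% of all summits, 0 by edgeR and by DESeq2), with 7795 of all summits at an unadjusted p under 0.05. Unadjusted, 2 members were lower in CSDS30, against 3.11% of all, and 0 were higher, against 2.01%. Both were at Sox9. The first, inside the gene at chr11:112782515, had 52.8 ± 5.76 in CSDS30 and 70.0 ± 10.0 in CSDS10 (SD, n = 5 each), a log2 fold change of -0.39 ± 0.17 (SE) with an adjusted p of 0.963 by limma. The second, before the gene at chr11:112781420, had 37.9 ± 11.5 in CSDS30 and 51.1 ± 5.47 in CSDS10, with -0.47 ± 0.21.

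Sox9 as a whole did not follow those 2 summits beyond its error: the log2 fold change of its total was -0.061 ± 0.069 (SE), and 18 of its 26 summits were below 0. In the other direction another Sox9 summit at chr11:112785771 had 0.59 (SE 0.31) and the S100b summit at chr10:76254557 had 0.54 (SE 0.31). Over the leading summits the range was -0.38 at S100b to 0.28 at Aldh1l1. The total was above 0 at 2 of 9 genes, Aldh1l1 and Aldoc, against 41.1% of all genes. 0 totals passed, and 0 had an unadjusted p under 0.05, against 1.24% of all genes higher and 4.60% lower. Of the 115 summits 48 were above 0, against 49.9% of all, with a median of -0.052 against -0.00034, and 0 did not overlap in either direction, against 0.334% and 0.387% of all. The 3 comparisons share libraries, so they are not independent of each other.

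**Figure D3:**
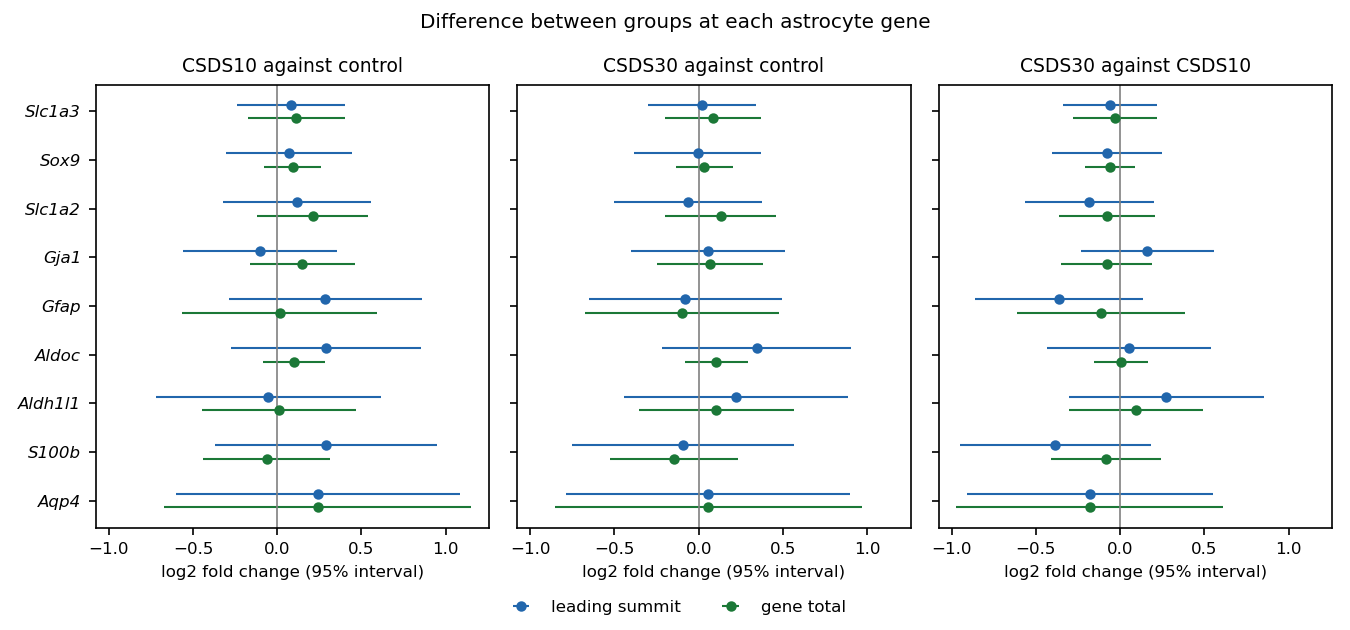
Log2 fold change (horizontal axes) with its 95% interval for the leading summit and for the summed count of each of the 9 genes (rows), in CSDS10 against control, CSDS30 against control and CSDS30 against CSDS10. Every interval includes 0, and the intervals are narrowest at the totals of Aldoc and Sox9 and widest at Aqp4. The total of Aldoc includes the 6 summits at the start of Pigs, which make up most of it.

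Within a group the libraries varied about as much at these genes as elsewhere. The median residual SD of the 115 summits was 0.39 on the log2 scale, against 0.34 over all summits, at lower levels than most. Divided by the variance that read counting alone gives, the variance had a median of 2.42, against 2.31 over all summits, and 69 of 115 summits were above 2, against 60.8% of all summits. Among the leading summits Sox9 was the steadiest at 1.29 times the counting variance and Gfap the most variable at 3.27. By gene, the median ratio was 3.42 at the 4 summits of Gfap, 2.70 at Slc1a2 and 1.81 at S100b.

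A summit in the Slc1a2 run, at chr2:102659040, had the highest ratio of all members, 10.2. It had 69.7, 48.4, 47.3, 38.5 and 69.6 in CSDS30, 51.7, 124, 45.2, 54.2 and 39.0 in CSDS10, and 30.7, 62.5 and 68.8 in control. CSDS10 replicate 2 was far above the rest there. The summit next to it, the leading one, had a ratio of 2.72. For the members, the 95% interval against control reached a median of 0.62 to either side on the log2 scale, where it reached 0.53 over all summits. These intervals are not adjusted for the 152270 summits tested, so larger differences could go uncalled as well. The Gja1 summit at chr10:56379970, with 0.85 in CSDS10 against control, did not pass.

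**Figure D4:**
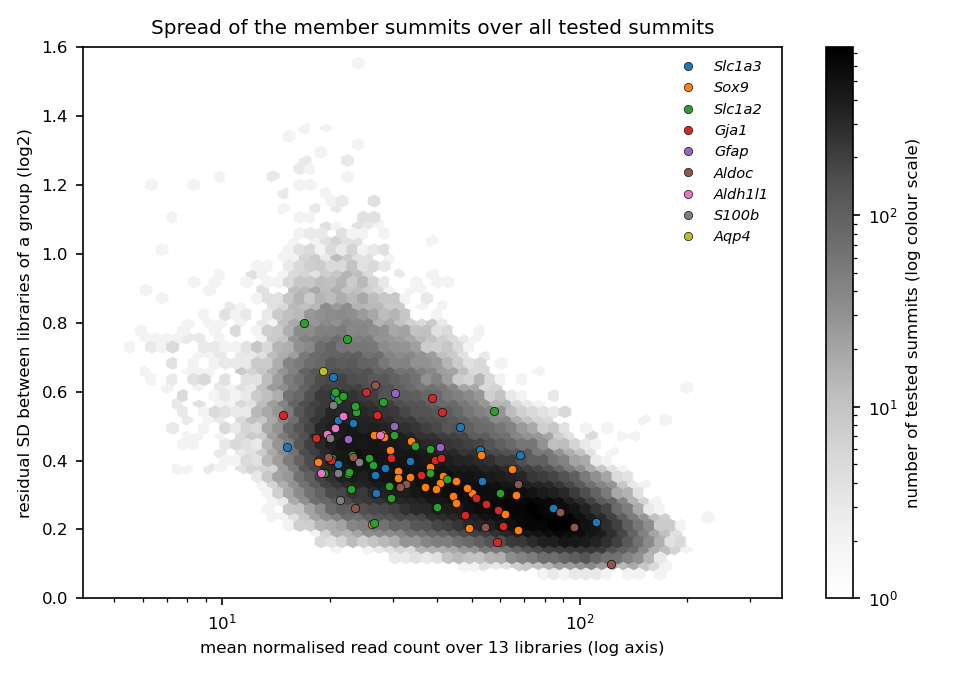
Residual SD between libraries of a group on the log2 scale (vertical axis) against the mean normalised read count over 13 libraries (horizontal log axis), with all tested summits as a grey density and the 115 member summits as points coloured by gene. The members lie inside the cloud of all summits, with Slc1a3 and the summits at the start of Pigs (coloured as Aldoc) at the right end.

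From library to library the 9 genes differed in which libraries were high. The summed count of Slc1a2 was 971, 768, 722, 658 and 899 in CSDS30, 717, 1162, 860, 734 and 798 in CSDS10, and 585, 864 and 760 in control. That of Gja1 was 552, 728, 828.8, 679 and 601 in CSDS30, 722, 575, 763, 839 and 677 in CSDS10, and 835, 531 and 591 in control. Some libraries that were high for one gene were low for another: CSDS10 replicate 2 had the highest Slc1a2 and the lowest Slc1a3 (514) of all 13, control replicate 1 the lowest Slc1a2 and the highest Gfap (173), and CSDS30 replicate 1 the lowest Gfap (60.3) with the highest Slc1a2 of its group. This did not hold in every library: CSDS10 replicate 3 was above its group mean at Slc1a2 and at Gja1.

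As deviations from the group means over the 13 libraries, Slc1a2 ran against Gja1 with Pearson r = -0.836 (exact permutation p = 0.00313, two-sided, libraries permuted within groups, adjusted p = 0.0715) and Spearman rho = -0.819 (exact permutation p = 0.00633). Against Slc1a3 r was -0.785 (exact permutation p = 0.00679, adjusted 0.0856) and rho -0.797 (exact permutation p = 0.00567), and against Gfap r was -0.724 (exact permutation p = 0.00749, adjusted 0.0858) and rho -0.736 (exact permutation p = 0.0123). Gfap and Gja1 ran together with r = 0.821 (exact permutation p = 0.0016, adjusted 0.0551) and rho = 0.824 (exact permutation p = 0.00317). Slc1a3 and Gja1 had r = 0.744 (exact permutation p = 0.00499, adjusted 0.0846) and rho = 0.863 (exact permutation p = 0.0017). The adjustment was over 126 relations, of the 9 genes with each other, with the other gene lists, with read number and with slope, and 0 of 126 passed an adjusted p of 0.05. The relations were picked after the values were seen. In the relations with Aldoc its summed count leaves out the 6 summits at the start of Pigs.

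Without the 2 libraries farthest from the median on the first gene, r was -0.754 for Slc1a2 with Gja1, -0.734 for Slc1a2 with Slc1a3, -0.715 for Gfap with Slc1a2, 0.799 for Gfap with Gja1 and 0.766 for Slc1a3 with Gja1. Without CSDS10 replicate 2 and CSDS30 replicate 2 they were -0.804, -0.649, -0.724, 0.828 and 0.663 in that order, with adjusted p of 0.37, 0.495, 0.378, 0.19 and 0.47. Over all 18 alternatives the adjusted p ranged from 0.0529 to 0.399 for Slc1a2 with Gja1, 0.0437 to 0.495 for Slc1a2 with Slc1a3, 0.0398 to 0.399 for Gfap with Slc1a2, 0.0365 to 0.399 for Gfap with Gja1 and 0.0398 to 0.47 for Slc1a3 with Gja1. The values under 0.05 came without CSDS30 replicate 5 (4 of these 5 relations) and, for Gfap with Gja1, also without CSDS30 replicate 2 (0.0474) and with scaling by total reads (0.0485). Over all 36 pairs of the 9 genes the median r was 0.118, 22 were positive, and 7 of the 8 pairs with Slc1a2 were negative. Sox9, the lineage factor, had r between -0.505 with Slc1a3 and 0.354 with Slc1a2.

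Sums over several other gene lists had correlations of the same size with these genes. All 14 genes of the neuronal list (Snap25, Syt1, Rbfox3 and others) had a summit, and the sum of their strongest summits was 603 to 904 in CSDS30, 616 to 1001 in CSDS10 and 571 to 781 in control. The sum was highest in CSDS10 replicate 2 and lowest in control replicate 1, the libraries with the highest and the lowest Slc1a2. Its deviations had r = 0.844 with Slc1a2 (exact permutation p = 0.00615, adjusted 0.0856; rho = 0.753, exact permutation p = 0.0143), r = -0.932 with Slc1a3 (exact permutation p = 0.000579, adjusted 0.0551; rho = -0.857, exact permutation p = 0.00192) and r = -0.804 with Gja1 (exact permutation p = 0.0034, adjusted 0.0715; rho = -0.885, exact permutation p = 0.00222). Without its 2 farthest libraries these r were 0.774, -0.768 and -0.856. Without CSDS10 replicate 2 and CSDS30 replicate 2 the adjusted p was 0.447 for Slc1a2, 0.19 for Slc1a3 and 0.378 for Gja1, and over all alternatives it ranged from 0.0638 to 0.447 for Slc1a2, 0.0255 to 0.365 for Slc1a3 and 0.0398 to 0.399 for Gja1.

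The 24 genes of the reactive list with a summit summed to 1405 to 1629 in CSDS30, 1317 to 1559 in CSDS10 and 1406 to 1561 in control. Their sum ran against Slc1a2 with r = -0.864 (exact permutation p = 0.00128, adjusted 0.0551; rho = -0.879, exact permutation p = 0.000764), which was the relation of Slc1a2 with the smallest p. It ran with Gja1 at r = 0.821 (exact permutation p = 0.00175, adjusted 0.0551; rho = 0.78, exact permutation p = 0.007), with Gfap at r = 0.767 (exact permutation p = 0.00537, adjusted 0.0846; rho = 0.78, exact permutation p = 0.00532) and with Slc1a3 at r = 0.696 (exact permutation p = 0.0237, adjusted 0.157; rho = 0.665, exact permutation p = 0.0292). Without its 2 farthest libraries these r were -0.867, 0.741, 0.732 and 0.517. Without CSDS10 replicate 2 and CSDS30 replicate 2 the adjusted p was 0.224, 0.19, 0.37 and 0.578 in the same order. The 6 microglial genes with a summit had r = -0.742 with Gfap (exact permutation p = 0.0118, adjusted 0.095; rho = -0.78, exact permutation p = 0.00605), and r = -0.672 without the 2 farthest libraries. The 2 ependymal genes had r = 0.745 with Slc1a3 (exact permutation p = 0.00926, adjusted 0.0897; rho = 0.67, exact permutation p = 0.0281) and 0.676 with Gja1 (exact permutation p = 0.0091, adjusted 0.0897; rho = 0.714, exact permutation p = 0.00946), and r = 0.741 and 0.733 without the 2 farthest libraries. The sum over the 52 other astrocyte genes ran against Slc1a3 with r = -0.743 (exact permutation p = 0.0128, adjusted 0.095). Its rho there was -0.538 (exact permutation p = 0.0881). Against Aldoc it had r = -0.725 (exact permutation p = 0.0236, adjusted 0.157) and rho = -0.615 (exact permutation p = 0.0517). Without the 2 farthest libraries these r were -0.259 and -0.679. With Sox9, Slc1a2 and Gfap the sum had r = 0.55, 0.366 and 0.186. In all 22 of the 126 relations had an unadjusted p under 0.05. Adjusted p under 0.05 for a relation with a list came with scaling by total reads, without CSDS30 replicate 2 or 5 and, for neurons with Slc1a3, without CSDS10 replicate 4 or 5.

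The slope had r = 0.478 with Slc1a2 and -0.634 with Slc1a3 (exact permutation p = 0.133 and 0.054), and read number -0.0773 and -0.263 (exact permutation p = 0.819 and 0.454). It had r = -0.811 with Aldoc (exact permutation p = 0.0101, adjusted 0.0912; rho = -0.725, exact permutation p = 0.0162) and -0.746 with Aqp4 (exact permutation p = 0.0122, adjusted 0.095; rho = -0.61, exact permutation p = 0.0527). Without the 2 farthest libraries those were -0.62 and -0.55, and without CSDS10 replicate 2 and CSDS30 replicate 2, the libraries that stand apart in slope, -0.307 and -0.339 with adjusted p of 0.901 and 0.787. The part of other cell types' chromatin or of slope in the pattern was not tested.

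**Figure D5:**
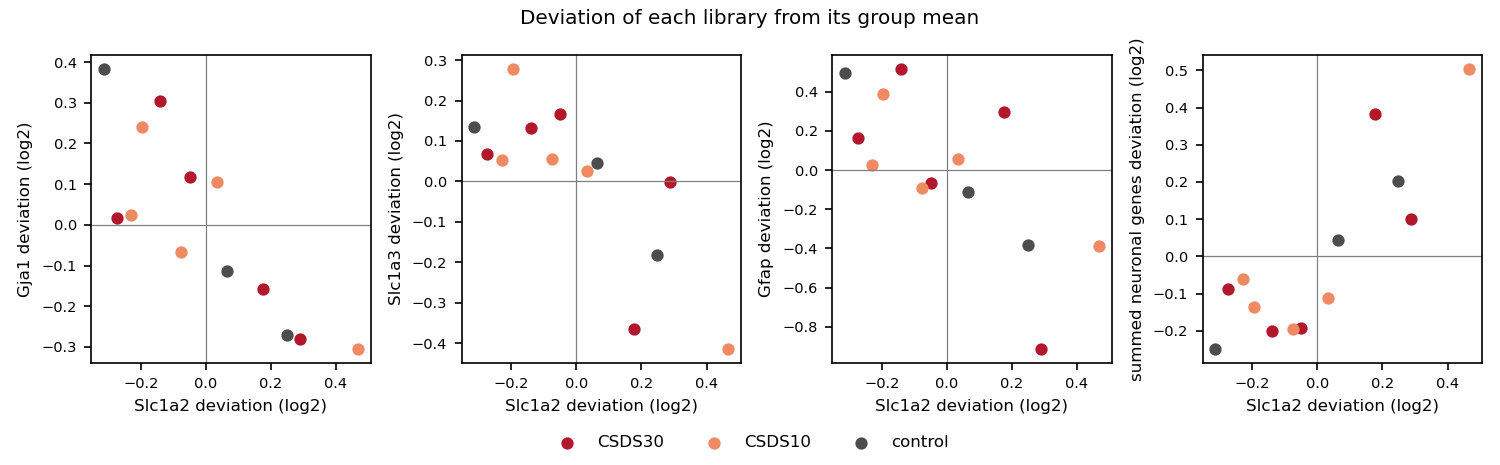
Deviation of each library from its group mean, on the log2 scale, of the summed count of Gja1, Slc1a3 and Gfap and of the sum over the 14 neuronal genes (vertical axes) against that of Slc1a2 (horizontal axes), for 5 CSDS30, 5 CSDS10 and 3 control libraries. Gja1, Slc1a3 and Gfap run downward with Pearson r of -0.836, -0.785 and -0.724, and the neuronal sum upward with 0.844, in points of all 3 groups.

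The wider astrocyte programme gave the same lack of calls. All 52 other astrocyte genes had a summit, and 0 passed in either comparison with control (limma, strongest summit, 0% of all summits). Their median log2 fold change was 0.0054 in CSDS10 and -0.063 in CSDS30 against control, beside 0.012 and -0.072 for all 15197 protein-coding genes. The 1 gene of 52 with an unadjusted p under 0.05, against 1.78% of coding genes higher and 1.03% lower in CSDS10, was Acsl3, a fatty acid ligase, with 107 ± 17.6 in CSDS10 (SD, n = 5) and 82.8 ± 13.9 in control (SD, n = 3). The metallothionein gene Mt3 had 86.5 ± 3.75 in CSDS10, 85.1 ± 12.9 in CSDS30 and 73.3 ± 4.07 in control.

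On the low side in CSDS10 stood the protease gene Htra1 at -0.35 ± 0.19 and the growth factor receptor gene Fgfr3 at -0.27 ± 0.18 (log2 fold change ± SE). In CSDS30 against control the transcriptional inhibitor gene Id3 had 0.37 ± 0.21, the claudin gene Cldn10 -0.43 ± 0.22 and Glul, which makes glutamine from glutamate, -0.25 ± 0.15. None of these passed, with adjusted p of 1.00 in CSDS10 and 1 in CSDS30 by limma.

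Of 30 genes of reactive astrocytes 24 had a summit and 0 passed in either comparison (limma, 0 at an unadjusted p under 0.05), with medians of 0.017 in CSDS10 and 0.024 in CSDS30 against control. The adhesion receptor gene Cd44 had 65.3 ± 4.15 in CSDS10 and 53.7 ± 8.25 in control, the iron oxidase gene Cp a log2 fold change of 0.52 ± 0.39 (SE), the class I histocompatibility gene H2-D1 -0.33 ± 0.20 and the cytokine gene Clcf1 -0.22 ± 0.22 in CSDS10. In CSDS30 Emp1 had 0.53 ± 0.30, Cd14 0.26 ± 0.17, H2-D1 -0.27 ± 0.20 and Clcf1 -0.29 ± 0.22. Markers of other cell types were present too: 14 of 14 neuronal genes had a summit, 9 of 14 of oligodendrocytes, 3 of 4 of their precursors, 6 of 12 of microglia, 11 of 12 of endothelial and mural cells and 2 of 5 of ependymal cells, and 0 of them passed in any comparison (limma). At an unadjusted p under 0.05 were 1 precursor gene, lower in CSDS30 against control, where 4.41% of coding genes were, and 1 endothelial or mural gene, higher in CSDS30 against CSDS10, where 0.704% of coding genes were.

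The 3 protein-coding genes whose strongest summit most resembled the mean of the 9 genes over the 13 libraries were Lef1, a transcription factor of the Wnt pathway, with Pearson r = 0.847 and Spearman rho = 0.945, Ripor3 with r = 0.834 and rho = 0.615, and Srgn, one of the reactive list, with r = 0.805 and rho = 0.863. They were picked as the highest of 15187 genes, whose median r was -0.026, so no test is given. The mean took the strongest summit of each of the 9 genes, which for Aldoc is the one at the start of Pigs. For Gja1 the strongest summit is not the leading one.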

How the data were processed

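H3K4me3 was measured in 13 libraries of mouse prefrontal cortex (5 CSDS30, 5 CSDS10, 3 control), and 1 input library is not analysed here. Mononucleosomes were released with micrococcal nuclease before immunoprecipitation, and single-end reads were 100 bp long, per the labels' protocols. The tools named are MACS2, Bowtie2, Trimmomatic and DESeq2 and the builds GRCm38.p5 and mm10, per the submitters' processing notes, and their roles and versions are not stated there. The authors' table holds a normalised signal per summit and library, over 48695 called regions. Its peak score per summit was made by the authors in a way not stated, as deposited, and enters no result. All values (100%, tolerance 0.001) were whole reads divided by a single factor per library, and the window of counting is not given. 0 columns of per-sample values were left unused.

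Genes and starts came from RefSeq GRCm38.p6. Of 153207 summits 937 were left out by a low-value filter, and 152270 were fitted with limma 3.58.1 (R 4.3.3) on log2(value + 1), a scale on which low summits change less, with a mean per group over all 13 libraries, a variance trend and Benjamini-Hochberg adjustment at 0.05. Summed counts per gene were fitted likewise over 20864 genes. The alternatives were edgeR 4.0.16 and DESeq2 1.42.0 on the recovered reads, other scaling, pseudocounts, filters, distances, a replicate block and libraries left out. The fit was tested on simulated data with changes larger than any fitted at the members. That test does not show whether differences of the members' size could be detected.

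The 9 genes, the lists and the tests were chosen with earlier results of these data known. Named summits are the 2 per direction and comparison with the smallest p, and list genes the 2 per direction in each comparison with control at the strongest summit. Replicate numbers are used only to name the libraries, and whether they stand for a shared origin is not stated.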

Additional observations from a re-analysis of the deposited data

Results flagged for a closer look

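Of 84 groups of 5 libraries examined for a library far from the others, 4 had one, where chance gives about 1 in 20. At the Sox9 summit at chr11:112785265, CSDS30 replicate 1 had 26.6 normalised reads, against 45.2 in the next CSDS30 library. At the strongest summit of Id3, CSDS10 replicate 2 had 43.8, against 71.5 in the next CSDS10 library, and this library also has the highest slope on the mean of all libraries. At H2-D1, CSDS30 replicate 3 had 114, against 80.7 in the next CSDS30 library. At Cd14, CSDS10 replicate 3 had 56.5, against 77.2 in the next CSDS10 library. None of the 9 leading summits or summed counts of the astrocyte genes held such a library.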

How the results depend on the processing

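The counts of called summits and genes were 0 under every alternative run, including the replicate block, edgeR, DESeq2 and each library left out. Of 2333 alternative values for 106 results, 2236 kept their direction and side of the threshold, 88 changed sign and 9 moved by more than the spread between control libraries, and the cause was not tested. The median member log2 fold change in CSDS10 against control was 0.146 with summits inside the genes only, and that in CSDS30 against CSDS10 was -0.0262 with scaling by total reads. The strongest summit near Aldoc, at the start of Pigs, had 118 in control. In CSDS10 against control the total of Gfap was -0.000501 with total reads, -0.113 with the replicate block, -0.0332 within 5 kb, -0.0301 by edgeR and -0.0233 by DESeq2. The total of Aldh1l1 was -0.00393 with total reads, -0.00405 with the block and -0.0237 inside the gene, and its leading summit 0.0869 by edgeR and 0.0862 by DESeq2. In CSDS30 against control the Aqp4 summit and total were -0.17 with the block, the Slc1a2 leading summit 0.0196 with the block, the Slc1a3 leading summit -0.019 by edgeR and -0.0227 by DESeq2, and the Sox9 leading summit 0.00668 with total reads. Without CSDS10 replicate 2 and CSDS30 replicate 2, an alternative chosen after seeing the data, the leading summits of Slc1a2 and Aldh1l1 were -0.0133 and 0.0997 and the total of S100b 0.0336 in CSDS10 against control. Aqp4 was -0.0961 and the S100b leading summit 0.0351 in CSDS30 against control, and Aqp4 was -0.67 and the totals of Slc1a2, Aldh1l1 and Aldoc were 0.0496, -0.0493 and -0.056 in CSDS30 against CSDS10.

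Leaving out each library in turn gave, in CSDS10 against control, -0.0782 to 0.106 for the Aldh1l1 total, -0.207 to 0.106 for the Aldh1l1 leading summit, 0.102 to 0.141 for the member median, -0.178 to 0.261 for the Gfap total, -0.31 to 0.0804 for the Gja1 leading summit, -0.161 to 0.0702 for the S100b total, -0.0133 to 0.228 for the Slc1a2 leading summit, -0.0461 to 0.28 for the Slc1a3 leading summit and -0.00964 to 0.172 for the Sox9 leading summit. Leaving out each library in turn gave, in CSDS30 against control, -0.00253 to 0.204 for the Aldh1l1 total, -0.0961 to 0.314 for the Aqp4 total, -0.0961 to 0.314 for the Aqp4 leading summit, 0.0596 to 0.104 for the member median, -0.292 to 0.147 for the Gfap total, -0.346 to 0.129 for the Gfap leading summit, -0.0666 to 0.26 for the Gja1 total, -0.148 to 0.242 for the Gja1 leading summit, -0.291 to 0.261 for the S100b leading summit, -0.0264 to 0.254 for the Slc1a2 total, -0.195 to 0.00815 for the Slc1a2 leading summit, -0.00691 to 0.175 for the Slc1a3 total, -0.107 to 0.22 for the Slc1a3 leading summit, -0.0366 to 0.0965 for the Sox9 total and -0.0858 to 0.0956 for the Sox9 leading summit. Leaving out each library in turn gave, in CSDS30 against CSDS10, -0.0128 to 0.193 for the Aldh1l1 total, -0.0491 to 0.046 for the Aldoc total, -0.0516 to 0.223 for the Aldoc leading summit, -0.516 to 0.0749 for the Aqp4 total, -0.516 to 0.0749 for the Aqp4 leading summit, -0.0829 to -0.0102 for the member median, -0.243 to 0.114 for the Gfap total, -0.151 to 0.0372 for the Slc1a2 total and -0.133 to 0.0615 for the Slc1a3 total. Same-numbered libraries of different groups had correlations of deviations from -0.287 to 0.368 over 11 pairs, against -0.426 to 0.382 over 44 other pairs, and the block called 0 summits. The values thus showed no pairing by number, which does not exclude a shared origin of same-numbered libraries. The 22 relations between libraries with an unadjusted p under 0.05 kept their sign in all 396 added alternatives. An adjusted p under 0.05 occurred in 20 of these and above it in 376, and the highest adjusted p of each relation lay between 0.365 and 0.901. Depth limits what can be seen at Aqp4, with as few as 5 reads.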
